A study of Mus musculus with 33 samples.

Results

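Axon guidance ligands and receptors were followed through sorted mammary epithelial cells of mice. The group comprised 68 protein coding genes, chosen by name among semaphorins of classes 3 to 7, plexins, neuropilins, ephrins, Eph receptors, Slits, Robos, netrins and Unc5 receptors with 10 reads or more in the sum of all 33 libraries. They were 68 of 55487 genes in the count table. Total RNA was sequenced after rRNA depletion from 19 mammary tumors and 14 tumor-free glands, each library from a different mouse, after short culture and a sort for GFP. WT mice carried Pthrpwt/wt and KO mice Pthrpflox/flox, where Pthrp is the gene of parathyroid hormone-related protein, listed as Pthlh in the counts. All mice, controls included, carried MMTV-Cre and the ROSA mT/mG reporter, in which cells that have had Cre turn GFP on. The MMTV lines were FVB/NJ, and the floxed allele came from C57BL/6 mice backcrossed to FVB. The strain of the reporter line is not given in the sources used here. Mice with tumors also carried MMTV-PyMT, a viral oncogene driven in the mammary epithelium. WT tumors were taken at week 6 (n = 3), week 8 (n = 3), week 10 (n = 3) and week 12 (n = 1). KO tumors were taken at weeks 8, 10 and 12 (n = 3 each). WT glands came from weeks 6, 8, 10 and 12 and KO glands from weeks 8, 10 and 12 (n = 2 each). The sort keeps cells in which the MMTV promoter was active at some time, so cells of other origin could pass only with Cre activity or as carry-over.

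Guidance proteins were named for steering growing axons, and epithelia use the same pairs. Semaphorins act through plexins, and most of the secreted class 3 members also use neuropilins as co-receptors. Ephrins are held in the membrane and bind Eph receptor tyrosine kinases on a neighbouring cell, Slits bind Robo receptors, and netrins bind Unc5 and Dcc-type receptors. In the mammary gland, netrin and Slit signals are known for contact between the basal and the luminal cell layer, and Eph-ephrin contacts for the order of cells in ducts.

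Depth was 28419983 to 130981596 counted reads per library. At that depth 0 reads in a library still allow 3 expected reads, by counting error alone. The epithelial label held in every library, with Epcam at 525 to 1048 CPM (counts per 1000000 reads, corrected for library composition with TMM) and Krt8 and Krt18 at 1379 CPM or more. Pthlh lay at 1.46 to 6.67 CPM in WT and 1.35 to 2.29 in KO tumors, and at 2.93 to 7.73 in WT glands and 2.79 to 8.52 in KO glands. Its counts overlapped between genotypes in both tissues and include any exons that stay after recombination, so they do not check the genotype labels.

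The main difference among the guidance genes lay between tumors and glands. Taken as the mean of 6 pairs of a tumor group with the gland group of the same genotype and week, 32 of 68 guidance genes changed, 27 lower and 5 higher in tumors. A change here means a fold over 1.5 with a Benjamini-Hochberg adjusted p under 0.1 in edgeR's quasi-likelihood test over all 36527 genes tested. Over all genes tested, 14.9% changed, 8.23% lower and 6.69% higher, against 47.1%, 39.7% and 7.35% of the guidance genes. Among protein coding genes 19.4% changed. The median log2 fold change (tumor minus gland) was -0.30 for the guidance genes and 0.08 for all genes tested. By role, 6 of 14 secreted ligands fell and 2 rose, 9 of 21 membrane-bound ligands fell and 1 rose, and 12 of 33 receptors fell and 2 rose.

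Single pairs gave fewer changes in the same direction. In WT mice 17 guidance genes changed at week 6, with 15 lower, where 5.86% of all genes changed and 3.53% were lower. At week 8 it was 20 with 19 lower (all genes 9.19% and 5.84%), and at week 10 12 with 10 lower (6.13% and 3.67%). In KO mice 10 changed at week 8 with 8 lower (all genes 2.49% and 1.38%), 15 at week 10 with 13 lower (5.66% and 3.09%) and 14 at week 12 with 11 lower (6.11% and 2.92%). The genes that were higher numbered 2, 1 and 2 in WT mice, where 2.32%, 3.35% and 2.46% of all genes were higher, and 2, 2 and 3 in KO mice, where it was 1.11%, 2.57% and 3.19%. Plxna2, Ephb2, Efnb1, Slit2, Slit3 and Robo1 were lower in tumors in all 6 pairs. Ntn1 and Sema6b were higher, and Sema4b lower, in 5 pairs. Each pair rests on 2 glands, and leaving out 1 library moved several of these counts. Without a gland of WT week 6 (replicate 2) the count was 7 (1.35% of all genes changed), and without a tumor of that group (replicate 2) it was 10 (2.81%). For KO week 8 it was 0 and 2 without gland replicate 1 and 2 (0.123% and 0.92% of all genes), and 4 without tumor replicate 2 or 3 (1.27% and 1.13%). For KO week 10 it was 5 without gland replicate 2 and 8 without tumor replicate 3 (1.89% and 2.96%), and for KO week 12 it was 9 without tumor replicate 2 (3.96%). Fitted on its own 5 libraries, the KO week 12 comparison called 0 guidance genes in edgeR (0% of all genes), where 21 had an unadjusted p under 0.05 in the fit of all libraries and DESeq2 called 17 (14.9% of all genes it tested). Other settings gave higher counts for WT week 10, KO week 8 and KO week 10, listed in the last section. The count over the mean of 6 pairs stayed at 29 to 32 without 1 library.

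**Figure D1:**
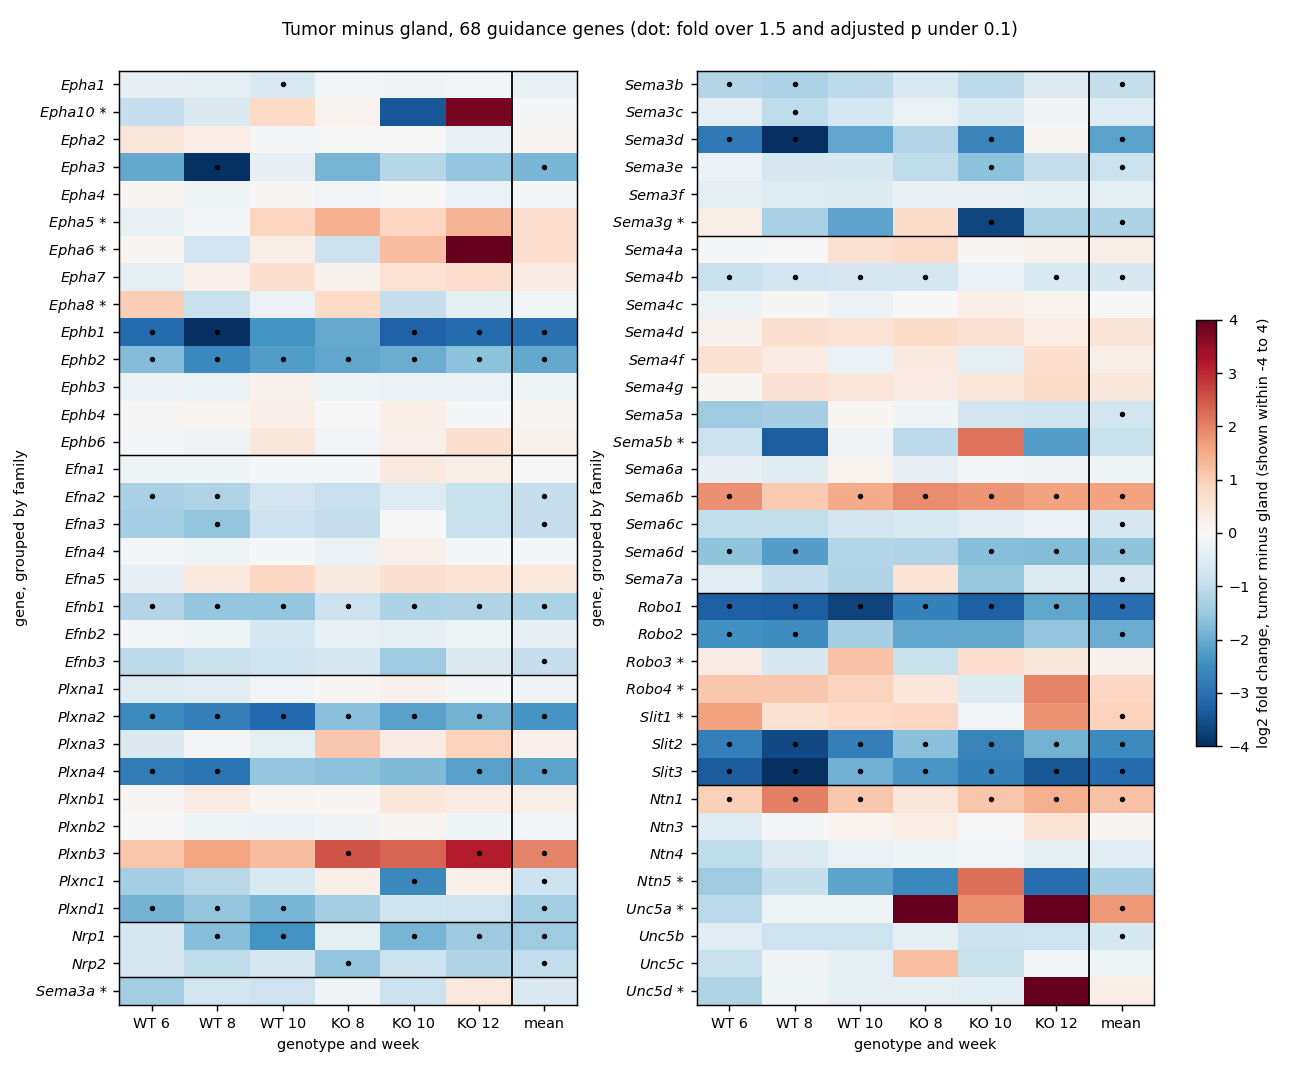
Log2 fold change, tumor minus gland, of the 68 guidance genes (rows, grouped by family) in the 6 pairs of genotype and week and in their mean (columns), coloured within -4 to 4; a dot marks a fold over 1.5 with adjusted p under 0.1, and an asterisk a gene with a median under 10 reads per library. Plxna2, Ephb2, Efnb1, Slit2, Slit3 and Robo1 carry a dot in every column, all blue, and Ntn1 is red with a dot in 5 of the 6 pairs.

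Markers of cell types also differed between tumors and glands, most clearly those of basal or myoepithelial cells. All 10 basal or myoepithelial markers were lower in tumors (median log2 fold change -2.96), and their summed level was 1006 to 5420 CPM in tumors and 5311 to 20766 in glands. Acta2, the smooth muscle actin of myoepithelial cells, fell by 3 on the log2 scale (SE 0.28). Of 10 luminal markers 3 rose (Elf5, Cldn3 and Kit) and 3 fell (Pgr, Krt19 and Esr1), and their summed level was 4206 to 9625 CPM in tumors and 5840 to 10411 in glands. Of 10 fibroblast markers 3 fell (Postn, Thy1 and Dcn), with a sum of 83.3 to 1100 CPM in tumors and 443 to 4353 in glands, most of it Postn. The 10 endothelial markers summed to 2.87 to 22.1 CPM in tumors and 3.55 to 39.6 in glands, and 4 fell. Of 9 pericyte markers tested 5 fell and 1 rose, of 10 Schwann cell markers 3 fell and 3 rose, of 10 macrophage markers 2 fell and 1 rose, of 10 lymphocyte markers 1 fell, and of 10 adipocyte markers 1 fell and 1 rose. The ranges of summed CPM in tumors and glands were 130 to 321 and 184 to 935 for pericytes, 115 to 278 and 81.5 to 302 for Schwann cells, 6.46 to 19.1 and 6.87 to 54.3 for macrophages, 0 to 4.97 and 0.0443 to 58.9 for lymphocytes, and 14.3 to 44.4 and 15.8 to 29.4 for adipocytes. Of the endothelial markers Eng had a median of 13.4 CPM in glands and 2.55 in tumors, and Cldn5 was at a median of 0 in both. Of the lymphocyte markers Ighm reached 44.6 CPM in a gland, with a median of 0 in glands. The part of these cell types in the guidance gene results was not tested, and in bulk libraries fewer cells of a type and less RNA per cell cannot be told apart.

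Eph receptors and ephrins, which signal between touching cells, fell in part. Of 14 Eph receptors 3 fell and none rose, a share that changed close to the 19.4% of all protein coding genes. Of 8 ephrins 4 fell and none rose. Ephb2, a receptor for B-type ephrins (chr4:136647539-136835988, minus strand, GRCm38), had a lowest, median and highest level of 57.6, 75.6 and 115 CPM in WT glands and 6.78, 16.7 and 28.3 in WT tumors. In KO mice the same values were 46.6, 72.8 and 95.4 CPM in glands and 10.8, 16.4 and 34.8 in tumors. Every tumor lay below every gland. Ephb2 was 4.12-fold lower in tumors, a log2 fold change of -2.04 (SE 0.16, edgeR adjusted p 2.28e-10), with -2.58 to -1.65 over the 6 pairs.

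Efnb1, the ephrin that binds Ephb2 and other EphB receptors (chrX:99136130-99148991, plus strand), fell as well. Its lowest, median and highest CPM were 56.8, 125 and 148 in WT glands and 21.5, 44.4 and 68 in WT tumors, then 57.9, 85.4 and 116 in KO glands and 29.6, 37.7 and 56.7 in KO tumors. Of the 19 tumors 17 lay below the lowest gland. The log2 fold change was -1.26 (SE 0.11, edgeR adjusted p 7.65e-10). The call at KO week 8 (-0.87, SE 0.26, adjusted p 0.0956) was lost without any of 4 of its 5 libraries in turn.

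The promoters of this receptor and ligand are shown because both genes were lower in tumors in all 6 pairs and their windows, of the 6 genes with that pattern, are those that lie wholly before the annotated gene start. RefSeq (GRCm38.p6) gave a promoter for 59 of the 68 genes. Each run below is the 250 bases before the RefSeq start, on the gene's strand, at chr4:136836013-136836262 for Ephb2 and chrX:99135811-99136060 for Efnb1, and capitals mark a match to CACCTG on either strand.
Ephb2: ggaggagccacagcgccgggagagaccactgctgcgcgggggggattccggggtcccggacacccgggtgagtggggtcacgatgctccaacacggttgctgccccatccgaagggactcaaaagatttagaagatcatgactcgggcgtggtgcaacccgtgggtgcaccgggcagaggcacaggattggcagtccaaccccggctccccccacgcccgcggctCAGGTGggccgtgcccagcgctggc
Efnb1: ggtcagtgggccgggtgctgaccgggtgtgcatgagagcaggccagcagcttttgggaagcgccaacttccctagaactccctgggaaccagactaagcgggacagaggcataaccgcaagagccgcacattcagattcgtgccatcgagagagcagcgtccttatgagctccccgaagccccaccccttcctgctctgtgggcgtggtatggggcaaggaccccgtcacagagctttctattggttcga
The Ephb2 window held 1 match to CACCTG, the E-box letters known for Snail and Zeb factors, read on the opposite strand. Neither window held GGGCGG, the GC box, or TATAAA, the TATA box, on either strand, and Efnb1 held none of the 3 motifs. Among all 32851 RefSeq windows of the same length, CACCTG was in 17.2%, GGGCGG in 32.7% and TATAAA in 12.4%. Among the 59 guidance genes with a window the shares were 16.9%, 74.6% and 3.4%. The windows were 68.4% (Ephb2) and 60.0% (Efnb1) G or C, against a median of 52.4%.

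Ephb1, a second EphB receptor, was far lower in level. It ran from 0.928 to 3.79 CPM in WT glands (median 2.09) and from 0.0204 to 0.595 in WT tumors (median 0.187), with 0.443 to 4.27 (median 2.46) in KO glands and 0.0729 to 0.725 (median 0.338) in KO tumors. Of 19 tumors 15 were below the lowest gland, and the log2 fold change was -2.98 (SE 0.33, edgeR adjusted p 9.22e-08). Epha3 fell too (-1.82, SE 0.41, adjusted p 0.00128) at medians of 0.713 CPM in WT glands and 0.101 in WT tumors, but without the KO gland of week 12 (replicate 1) the log2 fold change was -0.60 and the call was lost. Among ephrins, Efna2 had medians of 3.15 CPM in WT glands, 1.62 in WT tumors, 2.44 in KO glands and 1.58 in KO tumors (-0.92, SE 0.16, adjusted p 4.88e-05). Efna3 had medians of 3.56, 1.30, 2.63 and 1.60 CPM in the same order (-0.93, SE 0.19, adjusted p 0.000503). Efna2 and Efna3 are A-type ephrins, which are anchored by a lipid, unlike the B type. Efnb3 also fell (-0.91, SE 0.23, adjusted p 0.00359), with medians of 0.895 and 0.544 CPM in WT glands and WT tumors.

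The most abundant Eph receptors did not pass the test. Epha2, a receptor common in epithelia, had medians of 262 CPM in WT glands, 281 in WT tumors, 279 in KO glands and 271 in KO tumors, and a log2 fold change of 0.08 (SE 0.10). Ephb4, the receptor of ephrin-B2, had medians of 223, 232, 222 and 228 CPM in that order (0.10, SE 0.06). Its ligand Efnb2 had 125, 93.1, 127 and 94.4 CPM (-0.31, SE 0.11), under the fold threshold. Epha1 (-0.28), Ephb3 (-0.18), Epha4 (-0.08), Ephb6 (0.16) and Epha7 (0.32) did not pass either, at medians of 76.7, 54.2, 40.8, 71 and 5.09 CPM in WT tumors. Ephb6, which lacks kinase activity, had the widest spread of these, from 16.9 CPM in a KO gland to 261 in a WT tumor of week 10 (replicate 1). Efna1 (0.03), Efna4 (-0.06) and Efna5 (0.41) did not pass, at medians of 43.3, 32 and 19.7 CPM in WT tumors.

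**Figure D2:**
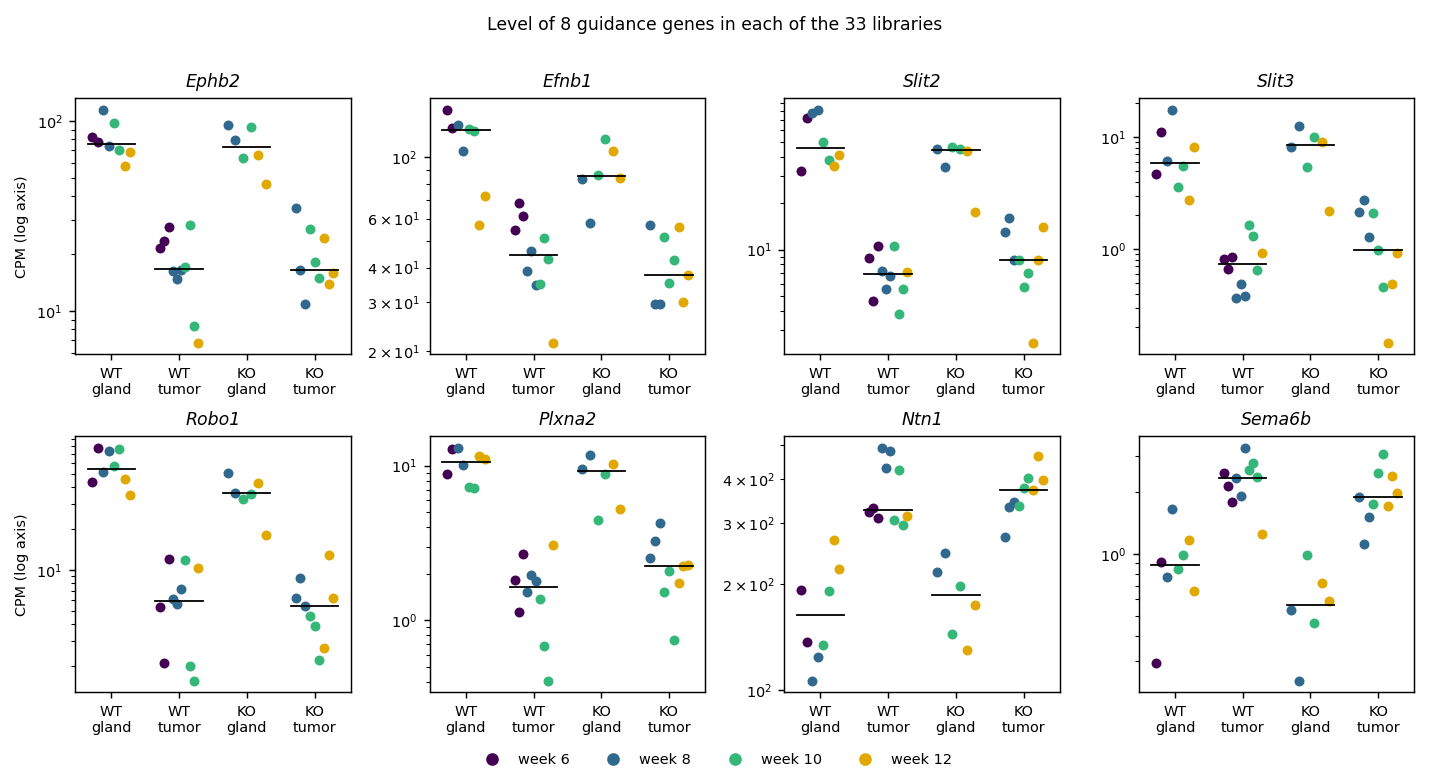
CPM on a log axis of 8 guidance genes in each of the 33 libraries, by genotype and tissue; points are mice coloured by week and black lines are medians. Ephb2, Slit2, Robo1 and Plxna2 lie lower in all 19 tumors than in any of the 14 glands, Ntn1 lies higher in all 19, and Efnb1, Slit3 and Sema6b overlap in a few libraries.

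Slits and Robos held the lowest family median, -1.98 on the log2 scale over 7 genes. Of these, 4 fell and 1 rose. Slit2, a secreted ligand of Robo receptors (chr5:47983138-48307733), ran from 32.5 to 82 CPM in WT glands (median 46.2) and from 3.78 to 10.6 in WT tumors (median 6.92). In KO mice it ran from 17.7 to 46.6 CPM in glands (median 44.7) and from 2.46 to 16.2 in tumors (median 8.57). Every tumor was below every gland, by 5.87-fold in the mean of 6 pairs (log2 fold change -2.55, SE 0.20, edgeR adjusted p 2.45e-10). Slit3, a second Slit (chr11:35121224-35708507), had medians of 5.86 CPM in WT glands, 0.742 in WT tumors, 8.52 in KO glands and 0.973 in KO tumors. It was 8.52-fold lower (-3.09, SE 0.27, adjusted p 1.47e-09), and 18 of 19 tumors were below the lowest gland. Its single-pair calls were the least firm. At WT week 10 (-1.92, adjusted p 0.092) and KO week 8 (-2.32, adjusted p 0.0614) they were lost without any 1 of the 5 libraries, as was that of Slit2 at KO week 8 (-1.67, adjusted p 0.0808).

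Robo1, their receptor (chr16:72308306-73046095), fell with them. It ran from 35.4 to 78 CPM in WT glands (median 54.5) and from 1.55 to 11.9 in WT tumors (median 5.87), and from 17.8 to 51.2 in KO glands (median 36.1) and 2.21 to 12.8 in KO tumors (median 5.42). Again no tumor reached a gland, and the log2 fold change was -3.05 (SE 0.27, edgeR adjusted p 2.03e-09). Its call at KO week 12 (-2.09, adjusted p 0.063) was lost without any of 3 of the 5 libraries. The lowest gland value of Ephb2, Slit2, Slit3 and Robo1 was in the same library, the KO gland of week 12 (replicate 2). This library had the highest rRNA share of all 33 (18.8%), the lowest fibroblast marker sum of the glands (443 CPM) and the next to lowest basal marker sum (5561 CPM). The gland with the lowest basal sum, the WT gland of week 10 (replicate 2, 5311 CPM), ranked 6, 5, 6 and 13 from the lowest of 14 glands for Ephb2, Slit2, Slit3 and Robo1. The part of these measures in the gene levels was not tested. Without the KO gland of week 12 (replicate 2), 30 guidance genes changed in the mean of 6 pairs (15% of all genes) and 12 at KO week 12 (4.73%). Robo2, a receptor of the same type, had medians of 2.38, 0.378, 2.02 and 0.435 CPM in WT glands, WT tumors, KO glands and KO tumors (-1.98, SE 0.31, adjusted p 1.51e-05). Across all genes tested, 0.608% had every tumor below every gland and 0.534% every tumor above, against 4 (5.88%) and 1 (1.47%) of the 68 guidance genes.

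Plexins, the semaphorin receptors, fell among the less abundant members. Of 9, 4 fell and 1 rose. Plxna2 (chr1:194618218-194816869) had the smallest adjusted p among them. It ran from 7.18 to 13.1 CPM in WT glands (median 10.6), 0.407 to 3.09 in WT tumors (median 1.65), 4.43 to 11.7 in KO glands (median 9.19) and 0.746 to 4.24 in KO tumors (median 2.26). No tumor reached a gland, with a log2 fold change of -2.35 (SE 0.17, edgeR adjusted p 6.53e-11). Its call at KO week 8 (-1.67, adjusted p 0.0326) was lost without any of 4 of the 5 libraries. Plxnd1, which binds Sema3e without a neuropilin, had medians of 36.5, 10.9, 21.5 and 11.8 CPM in WT glands, WT tumors, KO glands and KO tumors (-1.37, SE 0.17, adjusted p 5.43e-07). Plxna4 had 5.5, 1.26, 5.06 and 1.48 CPM (-2.14, SE 0.30, adjusted p 3.11e-06). Plxnb3 rose (1.99, SE 0.32, adjusted p 2.68e-05) from medians of 0.299 and 0.123 CPM in WT and KO glands to 0.696 and 0.741 in tumors. Plxnc1 fell by 0.86 on the log2 scale (SE 0.34, adjusted p 0.0741) at a median of 0.203 CPM in WT tumors, a call lost with replicate numbers as a block (-0.60) and in 10 of 30 fits that leave out 1 library, with -0.34 without the KO gland of week 10 (replicate 2). The abundant plexins did not pass. Plxnb2 had medians of 456, 433, 453 and 438 CPM (-0.10, SE 0.05), Plxnb1 175, 184, 163 and 210 (0.22, SE 0.05) and Plxna1 153, 128, 150 and 147 (-0.13, SE 0.07). Plxna3 had 29.2, 33, 19.3 and 33.7 CPM (0.22, SE 0.13).

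Both neuropilins, the co-receptors of most class 3 semaphorins, fell. Nrp1 ran from 9.76 to 22.7 CPM in WT glands (median 16.4) and 2.09 to 11.2 in WT tumors (median 5.44), and from 3.90 to 35.4 in KO glands (median 11.7) and 2.32 to 14.9 in KO tumors (median 4.78). Its log2 fold change was -1.41 (SE 0.20, edgeR adjusted p 3.7e-06). Nrp2 had medians of 61.5, 27.7, 79.8 and 32.7 CPM in WT glands, WT tumors, KO glands and KO tumors (-0.99, SE 0.17, adjusted p 5.39e-05). Both overlapped between tissues, with 5 and 7 of 19 tumors below the lowest gland.

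All 7 class 3 semaphorins, the secreted ligands, had a negative log2 fold change, and 4 passed the test. Sema3d had medians of 2.27, 0.240, 1.38 and 0.452 CPM in WT glands, WT tumors, KO glands and KO tumors (-2.15, SE 0.35, edgeR adjusted p 2.85e-05). Sema3b had 1.81, 0.869, 1.42 and 0.927 CPM (-0.95, SE 0.16, adjusted p 3.54e-05). Sema3e, the ligand of Plxnd1, had 6.86, 3.31, 7.45 and 4.22 CPM (-0.86, SE 0.19, adjusted p 0.000932). The more abundant Sema3f (97.7, 73.5, 88 and 72.5 CPM) and Sema3c (64.8, 39.4, 64.6 and 53.9 CPM) had log2 fold changes of -0.40 (SE 0.07) and -0.51 (SE 0.13) and stayed under the fold threshold.

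Among the 13 semaphorins of classes 4 to 7, most of them membrane-bound, 5 fell and 1 rose. Sema4b changed little but with a narrow spread, from 59.4 to 71.5 CPM in WT glands (median 65.8) to 34.2 to 44.3 in WT tumors (median 36.8), and from 47.1 to 82.8 in KO glands (median 66.5) to 31.8 to 53.3 in KO tumors (median 44.8). Of the 19 tumors 16 were below the lowest gland (-0.65, SE 0.06, edgeR adjusted p 1.22e-08). Sema6d had medians of 22.5, 8.18, 23.1 and 7.72 CPM in WT glands, WT tumors, KO glands and KO tumors (-1.61, SE 0.19, adjusted p 2.52e-07). Sema6b, of the same class as Sema6d, moved the other way. It ran from 0.294 to 1.66 CPM in WT glands (median 0.879) and 1.25 to 3.30 in WT tumors (median 2.35), and from 0.241 to 0.988 in KO glands (median 0.560) and 1.11 to 3.07 in KO tumors (median 1.89). In 16 of 19 tumors it was above the highest gland (1.60, SE 0.18, adjusted p 1.74e-07). Sema6c (-0.66), Sema5a (-0.72) and Sema7a (-0.69) fell with adjusted p of 0.00176, 0.0218 and 0.0247, at medians of 4.54, 5.62 and 6.06 CPM in WT tumors. The call of Sema6c was lost without the KO gland of week 12 (replicate 1; -0.36), and that of Sema7a without any of 3 glands (KO week 12 replicate 2 with -0.44, WT week 6 replicate 1 with -0.54, WT week 10 replicate 2 with -0.57). Sema4d (0.50), Sema4g (0.45), Sema4a (0.26), Sema4f (0.23), Sema4c (-0.01) and Sema6a (-0.20) did not pass, at medians of 38.7, 2.21, 7.91, 6.20, 58.7 and 11.1 CPM in WT tumors.

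Ntn1, netrin-1, a secreted laminin-related ligand (chr11:68209364-68400823), was the abundant guidance gene that rose. It ran from 106 to 268 CPM in WT glands (median 164) and from 297 to 492 in WT tumors (median 327). In KO mice it ran from 130 to 247 CPM in glands (median 187) and from 273 to 466 in tumors (median 372). All 19 tumors were above all 14 glands, and Ntn1 was 2.26-fold higher in tumors (log2 fold change 1.18, SE 0.08, edgeR adjusted p 2.41e-11). The log2 fold change was 0.97, 2.03 and 1.07 in WT mice of weeks 6, 8 and 10 and 0.45, 1.12 and 1.44 in KO mice of weeks 8, 10 and 12. The value at KO week 8 did not pass (SE 0.19, adjusted p 0.338). At week 8 the mean was 468 ± 34 CPM (SD, n = 3) in WT tumors against 115 ± 13 (n = 2) in WT glands, and 317 ± 38 (n = 3) in KO tumors against 232 ± 21 (n = 2) in KO glands.

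No well-counted netrin receptor rose with it. Unc5b, a netrin receptor known from vessels and epithelia, fell (-0.70, SE 0.15, edgeR adjusted p 0.000566), with medians of 94.9, 73.4, 87.7 and 55.2 CPM in WT glands, WT tumors, KO glands and KO tumors. Unc5c (0.451, 0.370, 0.211 and 0.211 CPM) had a log2 fold change of -0.19 (SE 0.29). Ntn4, a basement membrane netrin, had 42.8, 33.7, 37.4 and 34.4 CPM (-0.42, SE 0.19), and Ntn3 0.894, 0.849, 0.792 and 1 CPM (0.07, SE 0.18). Of the receptors outside the 68 genes, Neo1, neogenin, was at medians of 113 CPM in tumors and 95.9 in glands (0.20, SE 0.06), and Dcc at 0.0407 and 0.0442 CPM.

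Another 13 guidance genes had a median under 10 reads per library, namely Epha5, Epha6, Epha8, Epha10, Robo3, Robo4, Slit1, Sema3a, Sema3g, Sema5b, Ntn5, Unc5a and Unc5d. Their reads over all 33 libraries summed to 61 (Ntn5) to 374 (Slit1), and their highest library held 9 to 45 reads, at most 0.886 CPM (Robo4). Slit1 and Unc5a passed the test as higher and Sema3g as lower in tumors, but fold changes at this depth depend on single reads and are not given. The Unc5a call was lost with DESeq2, with replicate numbers as a block and in 16 of 30 fits without 1 library, that of Slit1 in 6 of 30, and that of Sema3g without the KO gland of week 8 (replicate 1).

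Set side by side per length, 4 guidance genes had the highest medians in tumors. On the scale of CPM per kilobase of exon, Epha2 had a median of 60.1 in tumors and 57.2 in glands, Plxnb2 56.5 and 59.1, Ephb4 50 and 48, and Ntn1 54.8 and 29.2. Ranges overlapped, with 31.4 to 85 for Epha2, 41.2 to 66.7 for Plxnb2 and 43.6 to 78.4 for Ntn1 in tumors. Efna1 came next in tumors with 24.4 (17.7 to 36.5), and Ephb6, with a median of 17, reached 69.3 in a tumor, above the highest of Plxnb2 and Ephb4, while Efnb1 was the fourth highest in glands with 30.4, and ran from 6.22 to 19.7 in tumors. Summed over the 33 receptors, the level was 230 to 300 CPM per kilobase in tumors (median 281) and 268 to 334 in glands (median 295). The 14 secreted ligands summed to a median of 85.2 in tumors and 71.2 in glands, and the 21 membrane-bound ligands to 115 and 141. Receptors and both kinds of ligand overlapped between tissues in these sums.

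The share that changed varied with level. Among the 7 guidance genes with a mean of 100 CPM or more over the 33 libraries, 1 changed (Ntn1), where 11.5% of all genes at that level changed. Between 10 and 100 CPM 9 of 23 fell and none rose, with 13.2% of all genes changed. Between 1 and 10 CPM 14 of 19 fell and 1 rose, with 32.7% of all genes changed. Under 1 CPM 4 of 19 fell and 3 rose, with 12.8% of all genes changed.

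**Figure D3:**
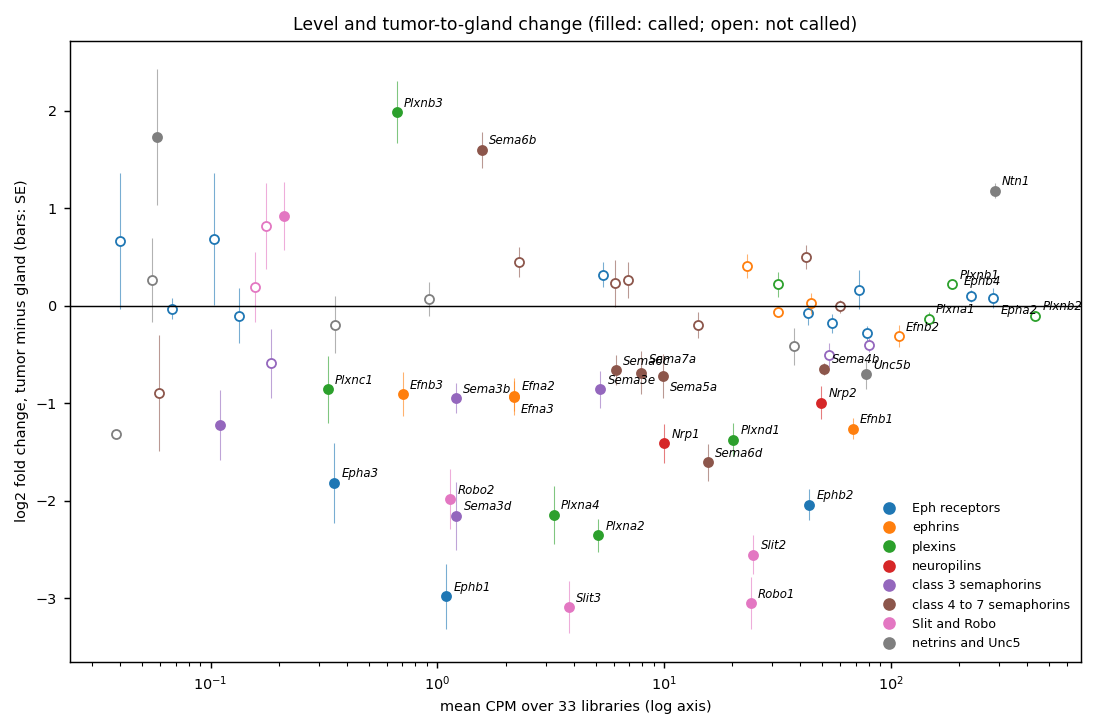
Log2 fold change, tumor minus gland, in the mean of 6 pairs (y axis, bars are standard errors) against the mean CPM over 33 libraries (log x axis) for the 68 guidance genes, coloured by family; filled points changed by over 1.5-fold with adjusted p under 0.1. Of the 7 genes at 100 CPM or more only Ntn1 is filled, while 15 of 19 genes from 1 to 10 CPM are filled, 14 of them below 0.

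Other genes of these pathways, from 3 lists of 64 genes in all, were tested in the same fit. Of them 18 fell and 6 rose, where 11.6% of all protein coding genes fell and 7.81% rose. Among 39 cytoplasmic effectors 7 fell and 3 rose, a share that changed not far from the 19.4% of all protein coding genes, with the smallest adjusted p for Mical2 (-2.62, SE 0.15), Dpysl5 (-2.50, SE 0.15) and Dpysl3 (-3.27, SE 0.27). Mical2 acts on actin downstream of plexins, and Dpysl3 and Dpysl5 are collapsin response mediators. The small GTPases Rhoa (-0.01, SE 0.05), Cdc42 (0.04, SE 0.05) and Rac1 (-0.21, SE 0.05) did not pass. Among 16 co-receptors, sheddases and adhesion partners 8 fell and 2 rose, and the smallest adjusted p were those of the sheddase Adam17 (0.55, SE 0.04, under the fold threshold), Flrt1 (-2.38, SE 0.23) and the glypican Gpc1 (-0.86, SE 0.08). Among 9 other netrin and RGM receptors and ligands 3 fell and 1 rose, led by Ntng2 (-2.10, SE 0.26), Rgma, which rose (0.89, SE 0.13), and Draxin (-2.23, SE 0.34).

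Loss of Pthrp was asked about by setting WT against KO libraries. In tumors of weeks 8 and 10, 0 of 68 guidance genes changed in edgeR over the genes with at least 10 reads (background 0.512% of all genes), with 8 at an unadjusted p under 0.05. DESeq2 called 3 (3.98% of all genes it tested), namely Ephb6 (1.07, adjusted p 0.0251), higher in WT tumors, and Plxna2 (-0.89, adjusted p 0.0342) and Slit3 (-1.16, adjusted p 0.0878), lower in WT tumors. In edgeR the same genes had log2 fold changes of 1.08 (SE 0.31, adjusted p 0.15), -0.87 (SE 0.27, adjusted p 0.202) and -1.16 (SE 0.43, adjusted p 0.305), WT minus KO. Without a filter on low counts edgeR called the same 3 (1.16% of all genes), with adjusted p of 0.00152, 0.0471 and 0.0592. The Ephb6 level of WT tumors includes 261 CPM in 1 tumor of week 10 (replicate 1), against a median of 71 CPM in WT tumors. With WT tumors of weeks 6, 8 and 10 set against KO tumors of weeks 8, 10 and 12, which the study treated as matched stages, 1 guidance gene changed, lower in WT tumors (background 1.11%, lower 0.824% and higher 0.282%). Without that filter Plxna2 also passed as lower in WT tumors (-0.64, adjusted p 0.0743, with 1.28% of all genes called). DESeq2 called Plxna2 as well (-0.65, adjusted p 0.0453), beside the gene that edgeR called, and its share of all genes is not given. The first comparison gave 2 guidance genes without the KO tumor of week 8 (replicate 1; 1.6% of all genes) and 1 without any 1 of the WT tumors of week 10 (0.315% to 0.988%), and the second gave 3 without the WT tumor of week 10 (replicate 1; 1.11%).

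The gene that changed at matched stages was Efna5, an A-type ephrin, lower in WT than in KO tumors (WT minus KO -0.66, SE 0.15, edgeR adjusted p 0.0331). The WT tumors were younger than the KO tumors at each stage, so genotype and age cannot be told apart in this comparison. At equal ages, weeks 8 and 10, Efna5 did not pass. Its mean was 14 ± 2.8 CPM (SD, n = 3 in each tumor group) in WT tumors of week 6, 22.6 ± 5.3 at week 8 and 24.4 ± 4.9 at week 10. In KO tumors it was 33.3 ± 9.4 CPM at week 8, 31.1 ± 6.1 at week 10 and 29.3 ± 8.2 at week 12. The single WT tumor of week 12 had 35.8 CPM, within the range of the KO tumors. The log2 fold change kept its sign, from -0.73 to -0.56, in all settings and in all fits without 1 library. The adjusted p rose above 0.1 with the rRNA share of each library as a covariate (-0.56, adjusted p 0.101) and without the KO tumor of week 8 (replicate 2; -0.58, adjusted p 0.105). The rRNA share had medians of 0.0499% (WT) and 0.952% (KO) in tumors, and of 0.0116% (WT) and 6.2% (KO) in glands.

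In glands of weeks 8, 10 and 12, 1 guidance gene changed between genotypes (background 0.906%, higher in WT 0.504% and lower 0.402%). Plxna3, a plexin of class A, was higher in WT glands (0.76, SE 0.20, edgeR adjusted p 0.0871), with 36.5 ± 21, 41.9 ± 15 and 24.5 ± 0.14 CPM (SD, n = 2 each) at weeks 8, 10 and 12 against 19.6 ± 0.92, 23.7 ± 5.7 and 16.6 ± 2.7 in KO glands. The log2 fold change stayed at 0.51 to 0.92 in all settings and fits without 1 library, but the call was lost in 4 of 8 other settings (0.72 to 0.81, the last with the rRNA covariate and an adjusted p of 0.3) and in 9 of 12 fits without 1 library. The count was 3 without the KO gland of week 12 (replicate 1; 2.12% of all genes) and 2 without the WT gland of week 8 or of week 10 (replicate 1 of each; 1.25% and 1.29%). DESeq2 called Plxna3 (0.75, adjusted p 0.0213) and Sema6b (0.78, adjusted p 0.0856), both higher in WT glands, and its share of all genes is not given. Without a filter on low counts edgeR called 4 (1.46% of all genes), all higher in WT glands, namely Plxna3 (adjusted p 0.00274), Ephb6 (0.82, adjusted p 0.0264), Plxnd1 (0.70, adjusted p 0.0558) and Unc5a, which has too few reads for a fold.

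Whether the tumor effect itself differed between genotypes was tested at weeks 8 and 10. Of the 68 guidance genes 0 passed in edgeR over the genes with at least 10 reads (background 0.00548%, with 0.00274% in each direction), with 5 at an unadjusted p under 0.05, and DESeq2, with 0.393% of all genes called, and edgeR without a filter on low counts, with 0.279%, each called Ntn1. Ntn1 had the smallest p, with a tumor effect larger by 0.76 on the log2 scale in WT mice (SE 0.19, unadjusted p 0.000427, edgeR adjusted p 0.437, without the filter 0.0326, DESeq2 adjusted p 0.0862). Plxna3 (-0.94, SE 0.32), Plxna2 (-0.99, SE 0.42) and Plxna1 (-0.38, SE 0.16) had unadjusted p of 0.00663, 0.025 and 0.0262.

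With age, 0 guidance genes changed in any of 4 comparisons in edgeR over the genes with at least 10 reads. Over all genes edgeR called 0.011% from week 6 to week 10 in WT tumors, 0% from week 8 to week 12 in KO tumors, 0.35% from week 6 to week 12 in WT glands and 0.567% from week 8 to week 12 in KO glands (higher 0.244%, lower 0.323%). DESeq2 called 1.66%, 0.718%, 3.93% and 7.76% of the genes to which it gave an adjusted p, in the same order. In WT tumors from week 6 to week 10, 10 had an unadjusted p under 0.05 and DESeq2 called 1, Ephb6, whose edgeR log2 fold change was 1.53 (SE 0.45, adjusted p 0.438). This value leaned on 1 tumor of week 10 (replicate 1), with 13614 reads of Ephb6 in 48598007 counted reads. The other week 10 tumors held 4130 in 40849018 and 2553 in 47132611. The week 6 tumors held 2648 in 72633074, 3507 in 54751855 and 1625 in 31642985. In KO tumors from week 8 to week 12 the counts of unadjusted p under 0.05 and of DESeq2 calls were 5 and 1, the latter Plxnb3 (edgeR -2.33, SE 0.59, adjusted p 0.446). In WT glands from week 6 to week 12 they were 7 and 2, the latter Efnb1 (edgeR -1.09, SE 0.29, adjusted p 0.141) and Sema7a (-1.86, SE 0.62, adjusted p 0.318). In KO glands from week 8 to week 12 they were 5 and 3, the latter Nrp1 (edgeR 1.88, SE 0.56, adjusted p 0.162), Sema7a (1.78, SE 0.63, adjusted p 0.265) and Ntn1 (-0.60, SE 0.21, adjusted p 0.245). Ntn1 thus had opposite signs with age in WT glands (week 12 minus week 6, 0.57, SE 0.21, edgeR adjusted p 0.387) and KO glands (week 12 minus week 8). The spans of age differ, neither value passed in edgeR, and the difference was not tested. Without the KO gland of week 12 (replicate 1) 4 guidance genes passed in KO glands, where 5.55% of all genes did. In WT tumors 1 passed without the week 10 tumor of replicate 3 (1.02% of all genes), and in KO tumors 1 without the week 8 tumor of replicate 1 (0.578%).

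Without a filter on low counts edgeR called guidance genes in each comparison by age. In WT tumors it called 3 (0.889% of all genes), namely Ephb6 (1.53, adjusted p 0.00515) and Efna5 (0.81, adjusted p 0.0773), higher at week 10, and Nrp1 (-1.39, adjusted p 0.0365), lower. The Ephb6 value again leaned on the WT tumor of week 10 (replicate 1), which also had the lowest luminal marker sum of the tumors (4206 CPM). In KO tumors it called Slit3 (-1.97, adjusted p 0.0361) and Plxnb3 (-2.30, adjusted p 0.0281), both lower at week 12, where 0.356% of all genes were called. In WT glands it called 4 (1.13% of all genes), with Efnb1 (-1.10, adjusted p 0.0071), Sema7a (-1.87, adjusted p 0.0233) and Unc5b (-1.05, adjusted p 0.075) lower and Nrp2 (1.23, adjusted p 0.0558) higher at week 12. In KO glands it called Nrp1 (1.88, adjusted p 0.00658) and Sema7a (1.78, adjusted p 0.0303), both higher at week 12, where 1.56% of all genes were called. Both values lean on 1 gland of week 12 (replicate 2), whose rRNA share was 18.8%. It held 718 reads of Nrp1 and 417 of Sema7a in 28683384 counted reads, and replicate 1 held 407 and 186 in 36463075. The week 8 glands held 439 and 172 in 48948162, and 81 and 85 in 28419983. Efnb1 also passed in WT glands with edgeR's filterByExpr filter (-1.11, adjusted p 0.0942, with 1.31% of all genes called) and in a fit of these libraries alone (-1.10, adjusted p 0.0931, with 0.677%).

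**Figure D4:**
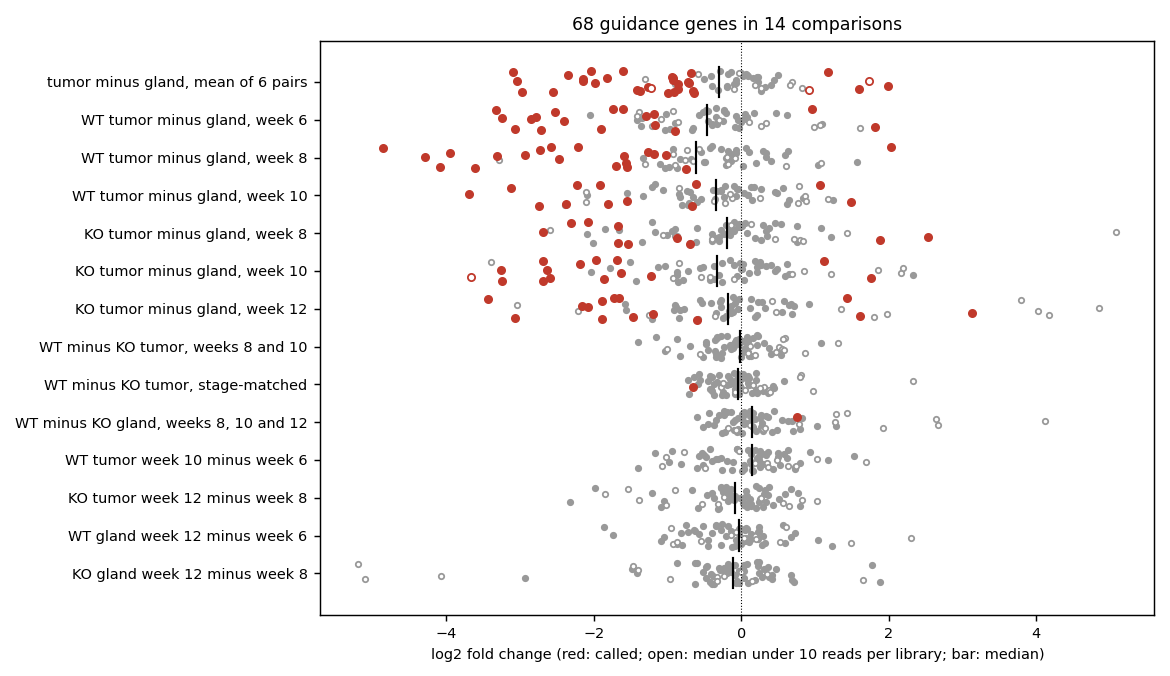
Log2 fold change of each of the 68 guidance genes (points) in 14 comparisons (rows); red points passed the test, open points are genes with a median under 10 reads per library, and bars are medians. Red points are spread to -4.86 in the rows of tumor minus gland, 1 is present in each of the rows for stage-matched tumors and for glands between genotypes, and none in the rows by age, all in edgeR over the genes with at least 10 reads.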

How the data were processed

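RNAseq libraries of 33 mice were analysed, 19 of tumors and 14 of glands, grouped by genotype, tissue and week as in the labels. Per the labels and the methods, the authors depleted rRNA, aligned stranded paired reads with HISAT to GRCm38, removed duplicates with Picard 1.128 and counted with HTSeq, and they deposited raw counts per gene. How HTSeq was set for strand is not given in the sources used here, and 31 of the 68 genes overlap an annotated gene on the opposite strand. Non-gene rows (111) held 0.0778% of reads and were left out. A second deposited table of normalized values was not used.

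Counts of 36527 genes with at least 10 reads over all libraries were fitted in edgeR 4.0.16 (glmQLFit and glmQLFTest, TMM) with 1 coefficient per genotype, tissue and week, so that all groups share one estimate of the spread. The study names DESeq2, run here as an alternative (1.42.0). Each standard error was taken as the fold change on the log2 scale divided by the square root of its F. Among 25 pairs of libraries of the same group none were duplicates (lowest chi-square per degree of freedom 37.4). Replicates are separate mice. Fits without 1 library kept the trended dispersion of the full fit. Fits were tested on simulated data with known changes. Exon lengths came from GENCODE on GRCm38. For each family the 3 genes with the smallest adjusted p were described in full, with every gene called in all 6 pairs, up to 6 called genes in each genotype or age comparison, and all others by level. Genes named for a DESeq2 call alone, Acta2 and other markers, Neo1, Dcc, Rhoa, Cdc42 and Rac1 were picked after their values were seen. The genes and lists were chosen with earlier results of these data known.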

Additional observations from a re-analysis of the deposited data

How the results depend on the processing

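Each comparison counts how many of the 68 guidance genes passed. No call among the 32 genes of the mean of 6 pairs reversed, 30 kept it in all 8 other settings and 25 also in every fit without 1 library. The counts were 29 to 32 without 1 library in the mean of 6 pairs, 7 to 13, 15 to 18 and 9 to 13 in WT weeks 6, 8 and 10, and 0 to 8, 5 to 13 and 9 to 14 in KO weeks 8, 10 and 12. They were 0 to 2 for WT against KO tumors of weeks 8 and 10, 0 to 3 for matched stages, 0 to 3 for glands, 0 for the tumor effect, 0 to 1 with age in tumors of either genotype, 0 in WT glands and 0 to 4 in KO glands.

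With no filter on low counts the counts were 20 for WT week 10, 17 for KO week 8, 3 for WT against KO tumors of weeks 8 and 10, 2 for matched stages, 4 for glands, 1 for the tumor effect, and with age 3 in WT tumors, 2 in KO tumors, 4 in WT glands and 2 in KO glands. DESeq2 gave 3, 2, 2 and 1 for the genotype comparisons in that order, and 1, 1, 2 and 3 with age. The filterByExpr filter gave 1 with age in WT glands. Fitted on the libraries of the groups compared alone, the counts were 23 for KO week 10, 0 for KO week 12, 0 for glands between genotypes and 1 with age in WT glands. The rRNA covariate gave 0 for matched stages and 0 for glands, and DESeq2 size factors in edgeR gave 0 for glands. The share of all genes called is not given for the counts of 20, 17 and 23, nor for DESeq2 at matched stages and in glands. Those counts are therefore not read as results about the guidance genes. The causes were not tested.

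Replicate numbers were not treated as pairs. Of 12 same-numbered pairs of a tumor and a gland, 3 had a correlation of deviations over 0.1 (median -0.17), among them both of KO week 8 (0.435 and 0.468). With 2 glands per group the deviations of the glands mirror each other, so these values cannot show whether pairing was absent. With replicate number as a block, 30 genes passed in the mean of 6 pairs and 0 in glands between genotypes. Depth limits the 13 genes under 10 reads, and single pairs rest on 2 glands each.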
